A study of Mus musculus with 15 samples.

Results

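The genes described here were ordered by MLX dose in C2C12 cells, a mouse line of skeletal muscle precursors that can fuse into myotubes. A gene was taken when its values did not overlap between 3 levels, the low level being cells with an shRNA against Mlx (MLX shRNA, 3 libraries), the middle level the 2 control constructs (6 libraries) and the high level cells expressing wild-type MLX (MLX-WT, 3 libraries). Of 23352 genes in the table, 824 met the rule: 430 were higher at each step from low to high dose (called rising) and 394 lower (called falling). A filter on low values (3 or more of the 15 libraries with an FPKM no lower than 1) kept 11945 genes for testing. Among these 741 were ordered, or 6.20%, with 366 rising (3.06%) and 375 falling (3.14%), and the filter removed 64 rising and 19 falling genes. The measured values of 12 libraries chose these genes, so their values at the 3 levels are given as a description, without a test. The libraries with the dominant-negative form of MLX (MLX-DN, 3 libraries) took no part in the order rule. They did count among the 15 libraries of the filter on low values. Tests are given for them alone.

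Messenger RNA was measured by poly(A)-selected, stranded sequencing, and a level is given as FPKM, the fragments mapped to a transcript scaled by its length and by the depth of the library. Every group was transduced with lentivirus. The MLX-DN cells carried the dominant-negative construct, the MLX-WT cells the wild-type one, and the MLX shRNA cells a hairpin against Mlx. The controls carried a non-targeting shRNA (NT shRNA) or a vector whose only product is green fluorescent protein (GFP control), with 3 libraries each. The labels do not give the change in the dominant-negative form. Nor do they say if a group's libraries came from different cultures, so the p-values reflect the scatter of these libraries alone, and it may be technical. Depth, estimated from the steps between low values, was 36.9 to 82.8 M reads per library. Dose here means the construct, since MLX protein was not measured. The summed level of 7 myoblast markers lay between 1547 and 1825 FPKM over all libraries, with Des alone at 1003 to 1200 FPKM. Pax7 had only 0.768 to 4.29 FPKM and Myf5 3.64 to 12.9 FPKM. The sum of 7 myotube markers was 5122 to 7163 FPKM.

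MLX belongs to the transcription factors with a basic helix-loop-helix leucine zipper. It binds DNA only in a pair with another factor, such as MLXIP (MondoA), MLXIPL (ChREBP) or members of the MAD family. With MondoA or ChREBP it binds carbohydrate response elements, built of E-boxes related to CACGTG, and activates genes that answer to glucose-derived metabolites. With MAD proteins it forms pairs known for repression, so MLX is known to work in both directions.

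The letters CACGTG, which read the same on both strands, were sought in the 300 bases around each RefSeq start (250 before, 50 after) of the GRCm38.p6 build. They occurred near at least 1 start of 20 of the 281 rising genes with such a sequence (7.12%), 44 of 310 falling genes (14.2%) and 1124 of 9340 tested genes (12.03%), the same share over all 27025 RefSeq genes being 8.09%. A pair of such motifs in 1 window was held by 1 rising gene (0.356%), 5 falling genes (1.61%) and 126 tested genes (1.35%). The full carbohydrate response element, searched in a degenerate form on both strands, was found in no rising gene, 1 falling gene (0.323%) and 12 tested genes (0.128%). Of the 88 genes the naming rule selects, 72 had a sequence and 6 held CACGTG. Of the 19 largest-gap genes with a sequence, Slc20a1 was the only one. Printed here are the promoter of the targeted gene and those of 3 ordered genes described later, 5′ to 3′ on the gene's own strand with CACGTG in capitals. Slc20a1, Ldha and Pfkfb3 have 2 start windows each, and the window that holds the motif was chosen, the other having no match. The 3 genes are Slc20a1 (a falling phosphate transporter with 2 matches), Ldha (the rising lactate dehydrogenase, also with 2) and Pfkfb3 (a rising glycolytic regulator).
Mlx, chr11:101087040-101087339 (plus strand): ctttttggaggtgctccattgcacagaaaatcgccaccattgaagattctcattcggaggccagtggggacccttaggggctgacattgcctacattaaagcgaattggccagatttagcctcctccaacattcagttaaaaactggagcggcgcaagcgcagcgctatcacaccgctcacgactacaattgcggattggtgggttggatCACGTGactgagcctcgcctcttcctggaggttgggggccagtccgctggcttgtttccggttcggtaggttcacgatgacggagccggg
Slc20a1, chr2:129198523-129198822 (plus strand): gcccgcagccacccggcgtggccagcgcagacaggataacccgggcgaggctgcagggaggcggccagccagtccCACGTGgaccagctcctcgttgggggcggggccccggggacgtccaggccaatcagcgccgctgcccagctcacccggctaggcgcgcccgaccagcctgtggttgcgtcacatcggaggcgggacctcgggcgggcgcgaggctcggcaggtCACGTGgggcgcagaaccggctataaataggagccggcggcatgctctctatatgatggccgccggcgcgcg
Ldha, chr7:46845554-46845853 (plus strand): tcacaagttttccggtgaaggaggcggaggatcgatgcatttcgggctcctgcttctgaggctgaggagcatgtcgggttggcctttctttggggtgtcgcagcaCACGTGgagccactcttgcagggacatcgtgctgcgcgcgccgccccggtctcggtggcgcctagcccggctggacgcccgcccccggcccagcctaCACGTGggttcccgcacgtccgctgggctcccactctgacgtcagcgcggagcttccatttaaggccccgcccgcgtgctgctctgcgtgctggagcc
Pfkfb3, chr2:11502041-11502340 (minus strand): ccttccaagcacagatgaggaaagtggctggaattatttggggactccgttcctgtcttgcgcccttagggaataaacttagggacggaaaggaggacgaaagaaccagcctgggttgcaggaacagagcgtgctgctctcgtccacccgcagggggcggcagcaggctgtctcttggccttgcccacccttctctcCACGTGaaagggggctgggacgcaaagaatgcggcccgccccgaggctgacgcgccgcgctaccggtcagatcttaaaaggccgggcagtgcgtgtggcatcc
Counted from the start site, the motif began at base -40 in Mlx, -175 and -22 in Slc20a1, -145 and -48 in Ldha, and -53 in Pfkfb3. A match describes these letters only, and binding was not measured.

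Mlx itself followed the constructs, with 2.88, 3.95 and 2.8 FPKM with MLX shRNA, 16.3, 17.1 and 17.9 FPKM with the NT shRNA, 16.6, 17.6 and 17.1 FPKM with the GFP control and 655, 632 and 645 FPKM with MLX-WT. The MLX-DN libraries had 384, 399.9 and 398 FPKM, between the controls and MLX-WT. Reads of a construct cannot be told from those of the cells' own Mlx, and 19.3% of the gene's exon bases overlap Psmc3ip on the opposite strand. Of the 11 tested genes of MLX, its partners and the MYC, MAX and MAD factors, Mlx was the only one ordered by dose. Mlxip had 3.62 to 4.23 FPKM with MLX shRNA, 4.51 to 5.03 with the NT shRNA, 3.86 to 4.51 with the GFP control and 3.32 to 3.7 with MLX-WT, so its libraries overlapped. Mlxipl stayed at or below 0.0206 FPKM in all 15 libraries and was not tested.

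**Figure D1:**
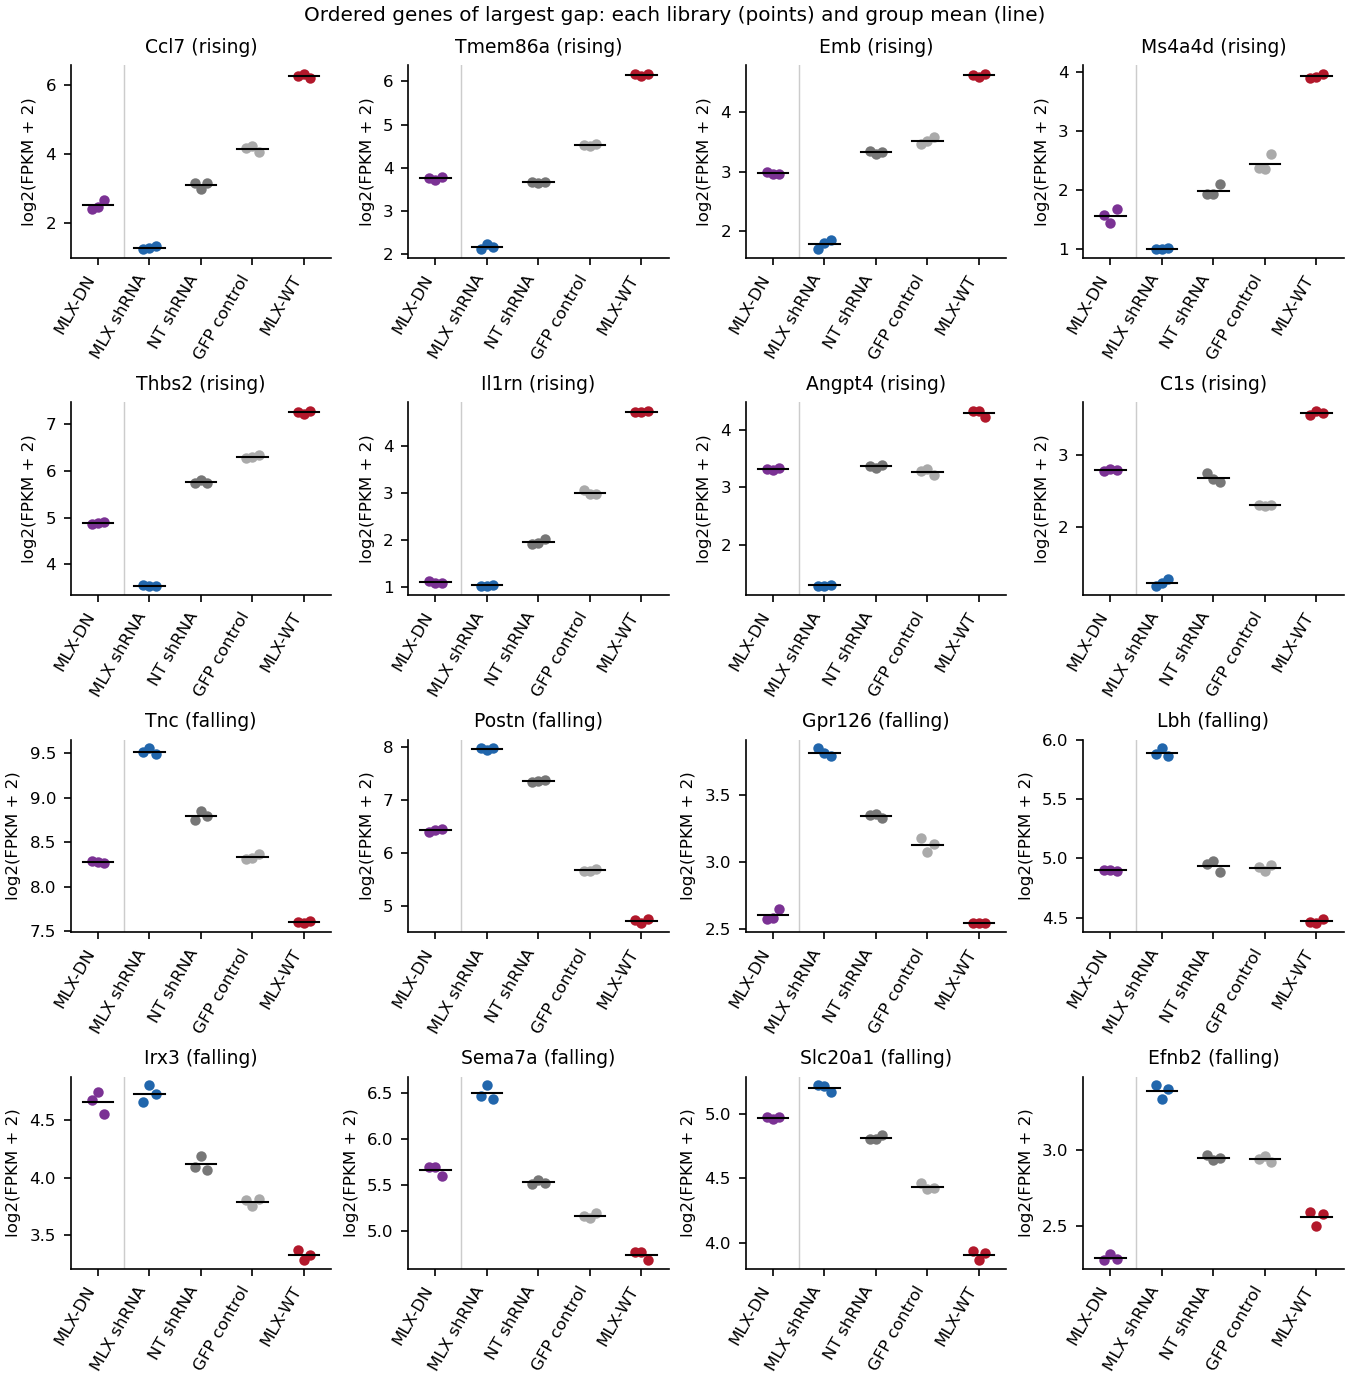
Each panel is 1 gene, the 8 rising and 8 falling genes of largest gap, with log2(FPKM + 2) on the vertical axis, a point for each library and a line at each group's mean of 3 libraries. To the right of the grey line the constructs run from low to high MLX dose. At left are the MLX-DN libraries, which lie near the MLX shRNA libraries for Il1rn and Irx3, among the controls for Angpt4 and Lbh, and past the MLX-WT libraries for Efnb2.

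The rising genes of largest gap other than Mlx were Ccl7, Tmem86a, Emb, Ms4a4d, Thbs2 and Il1rn. They are described here by role. Genes are ranked by the smaller of the 2 gaps, in log2(FPKM + 2), between the nearest libraries of neighbouring levels. Differences on this scale understate the change of genes with low values. Ccl7, a chemokine that attracts monocytes, had 0.398, 0.438 and 0.55 FPKM with MLX shRNA, 7.06, 6.01 and 6.95 FPKM with the NT shRNA, 16.1, 16.9 and 14.8 FPKM with the GFP control and 75, 78.2 and 72 FPKM with MLX-WT. Its smaller gap was 1.65, the largest of all ordered genes. Il1rn, the secreted antagonist of the interleukin 1 receptor, had 0.0427, 0.0326 and 0.0698 FPKM with MLX shRNA, 1.78, 1.83 and 2.07 FPKM with the NT shRNA, 6.36, 5.92 and 5.84 FPKM with the GFP control and 24.5, 24.2 and 24.7 FPKM with MLX-WT. The NT shRNA libraries of both genes lay below those of the GFP control without overlap, so the 2 controls also formed a step. C1s, a serine protease of the complement cascade, had 0.288, 0.347 and 0.434 FPKM with MLX shRNA, 4.69, 4.34 and 4.15 FPKM with the NT shRNA, 2.96, 2.93 and 2.96 FPKM with the GFP control and 9.68, 10.1 and 9.92 FPKM with MLX-WT. In C1s the controls stood the other way, with the NT shRNA above the GFP control. C1s has near copies in the mouse genome, and reads could have been split between them.

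Matrix and membrane proteins were encoded by other rising genes of large gap. Thbs2, a matricellular thrombospondin, had 9.71, 9.57 and 9.6 FPKM with MLX shRNA, 51.5, 53.5 and 51.7 FPKM with the NT shRNA, 75.8, 76.7 and 78.8 FPKM with the GFP control and 151, 148 and 154 FPKM with MLX-WT. This was a log2 difference of -2.49 ± 0.02 (SE) for MLX shRNA and 1.22 ± 0.02 (SE) for MLX-WT against the mean of both controls. In bulk RNA a smaller number of cells of 1 type and less RNA per cell cannot be told apart. The summed level of 5 fibroblast markers was 1.77 to 2.18 FPKM with MLX shRNA, 24.1 to 25.4 with the NT shRNA, 12.1 to 12.3 with the GFP control and 11.7 to 12.1 with MLX-WT, and its part in the matrix values was not tested. Dcn made most of the sum in the controls and MLX-WT, with 16.6 to 17.4 FPKM with the NT shRNA. With MLX shRNA it had 0.384 to 0.556 FPKM. Dpt stood higher with MLX shRNA (0.518 to 0.757 FPKM) than with the GFP control (0.389 to 0.506 FPKM). Of the 3 markers tested only Pdgfra was ordered, a rising gene with 0.857 to 0.937 FPKM with MLX shRNA, 2.04 to 2.07 with the NT shRNA, 2.41 to 2.72 with the GFP control and 2.79 to 2.99 with MLX-WT, and Thy1 did not pass 0.0437 FPKM in any library. Tgm2, a transglutaminase that crosslinks proteins, had 7.31, 7.28 and 7.22 FPKM with MLX shRNA, 19.7, 19.96 and 19.9 FPKM with the NT shRNA, 27.3, 26.9 and 26 FPKM with the GFP control and 50.1, 48.9 and 49.9 FPKM with MLX-WT. Lgals3bp, a secreted galectin-binding glycoprotein, had 2.51 to 2.61 FPKM with MLX shRNA, 5.66 to 5.9 with the NT shRNA, 7.57 to 8.25 with the GFP control and 25.3 to 25.6 with MLX-WT. Emb, the membrane protein embigin that accompanies lactate transporters, had 1.24, 1.46 and 1.57 FPKM with MLX shRNA, 8.17, 7.84 and 8.02 FPKM with the NT shRNA, 8.99, 9.42 and 9.95 FPKM with the GFP control and 22.7, 22.3 and 23 FPKM with MLX-WT. Ms4a4d, of the MS4A family of membrane proteins, was listed at 0, 0 and 0.0131 FPKM with MLX shRNA and had 12.8, 13.1 and 13.6 FPKM with MLX-WT, with controls between 1.79 and 4.07 FPKM.

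The remaining leaders were enzymes and a ligand. Tmem86a, a membrane enzyme that breaks down lysoplasmalogens, had 2.37, 2.72 and 2.48 FPKM with MLX shRNA, 10.7, 10.6 and 10.8 FPKM with the NT shRNA, 21.2, 20.6 and 21.3 FPKM with the GFP control and 70.1, 68.3 and 70.1 FPKM with MLX-WT. Its 4 constructs formed separate steps, with the NT shRNA below the GFP control. Angpt4, a ligand of the endothelial TIE2 receptor, had 0.44 to 0.475 FPKM with MLX shRNA, 8.08 to 8.47 with the NT shRNA, 7.31 to 8.02 with the GFP control and 16.7 to 18 with MLX-WT. Mgst1, a microsomal glutathione transferase, had 0.649 to 0.943 FPKM with MLX shRNA, 2.6 to 3.13 with the NT shRNA, 2.93 to 3.79 with the GFP control and 9.44 to 10.4 with MLX-WT. Cyp11b1, a steroid hydroxylase of the adrenal cortex, had 0.0112 to 0.0221 FPKM with MLX shRNA, 1.48 to 1.81 with the NT shRNA, 1.2 to 1.6 with the GFP control and 3.78 to 4.05 with MLX-WT, and its MLX shRNA values are at or under the 3-read floor of about 0.0181 to 0.0406 FPKM for a transcript of 2000 bases.

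The falling genes of largest gap were Tnc, Postn, Gpr126, Lbh, Irx3 and Sema7a, described here by role. Tnc, the matrix glycoprotein tenascin C, had 726, 750.1 and 718 FPKM with MLX shRNA, 429.8, 459.9 and 442 FPKM with the NT shRNA, 316, 317 and 329 FPKM with the GFP control and 193, 191 and 194 FPKM with MLX-WT. Its smaller gap of 0.64 was the largest of the falling genes. The group means gave a log2 difference of 0.95 ± 0.022 (SE) for MLX shRNA and -0.96 ± 0.022 (SE) for MLX-WT against the mean of both controls. Postn, the matrix protein periostin, had 250.4, 244 and 251 FPKM with MLX shRNA, 161, 163 and 164 FPKM with the NT shRNA, 48.9, 48.6 and 50.02 FPKM with the GFP control and 24.8, 23.6 and 25 FPKM with MLX-WT. The controls of Postn differed by a log2 value of 1.69 (NT shRNA minus GFP control), a larger step than that from the GFP control to MLX-WT (-0.95). Col5a3, a chain of collagen V, had 132 to 142 FPKM with MLX shRNA, 102 to 107 with the NT shRNA, 77.6 to 79.5 with the GFP control and 45.5 to 46.2 with MLX-WT. Tnc and Postn therefore ran against Thbs2, and the list of matrix genes held members in both directions.

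Cell-contact receptors and ligands were among the falling genes too. Gpr126, an adhesion G protein-coupled receptor needed for myelination by Schwann cells, had 12.4, 12 and 11.8 FPKM with MLX shRNA, 8.18, 8.24 and 8.0 FPKM with the NT shRNA, 7.06, 6.42 and 6.75 FPKM with the GFP control and 3.84, 3.83 and 3.84 FPKM with MLX-WT. Sema7a, a membrane-anchored semaphorin, had 86.3, 93.7 and 84.6 FPKM with MLX shRNA, 43.4, 44.7 and 43.9 FPKM with the NT shRNA, 33.8, 33.1 and 34.4 FPKM with the GFP control and 25.2, 25.3 and 23.6 FPKM with MLX-WT. Efnb2, the membrane ligand ephrin B2, had 8.05 to 8.71 FPKM with MLX shRNA, 5.64 to 5.81 with the NT shRNA, 5.56 to 5.77 with the GFP control and 3.65 to 4.03 with MLX-WT. Epha1, an ephrin receptor, had 10.9 to 12.2 FPKM with MLX shRNA, 8.12 to 8.53 with the NT shRNA, 5.48 to 5.93 with the GFP control and 2.51 to 2.79 with MLX-WT. The 2 controls overlapped in Efnb2 and did not in the other 3 genes. Hbegf, a ligand of the epidermal growth factor receptor, had 36.6 to 39 FPKM with MLX shRNA, 29.5 to 30.1 with the NT shRNA, 22.3 to 22.8 with the GFP control and 14.7 to 15.2 with MLX-WT.

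Regulators of transcription and a transporter completed the falling leaders. Lbh, a transcriptional cofactor of limb and heart development, had 56.9, 59 and 56.1 FPKM with MLX shRNA, 29, 29.5 and 27.6 FPKM with the NT shRNA, 28.5, 27.7 and 28.7 FPKM with the GFP control and 20.02, 19.9 and 20.5 FPKM with MLX-WT. The 2 controls of Lbh overlapped, so the step lay between the controls and each end. Irx3, an Iroquois homeobox factor, had 23.2, 25.9 and 24.5 FPKM with MLX shRNA, 15, 16.3 and 14.8 FPKM with the NT shRNA, 12, 11.5 and 12.1 FPKM with the GFP control and 8.32, 7.72 and 8.0 FPKM with MLX-WT. Slc20a1, the sodium-dependent phosphate transporter whose promoter is shown above, had 35.2, 35.1 and 34 FPKM with MLX shRNA, 25.9, 25.9 and 26.6 FPKM with the NT shRNA, 20.1, 19.4 and 19.5 FPKM with the GFP control and 13.3, 12.6 and 13.2 FPKM with MLX-WT. Fam167a had 15.2 to 15.3 FPKM with MLX shRNA, 10.2 to 10.4 with the NT shRNA, 6.58 to 6.9 with the GFP control and 4.86 to 4.97 with MLX-WT.

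**Figure D2:**
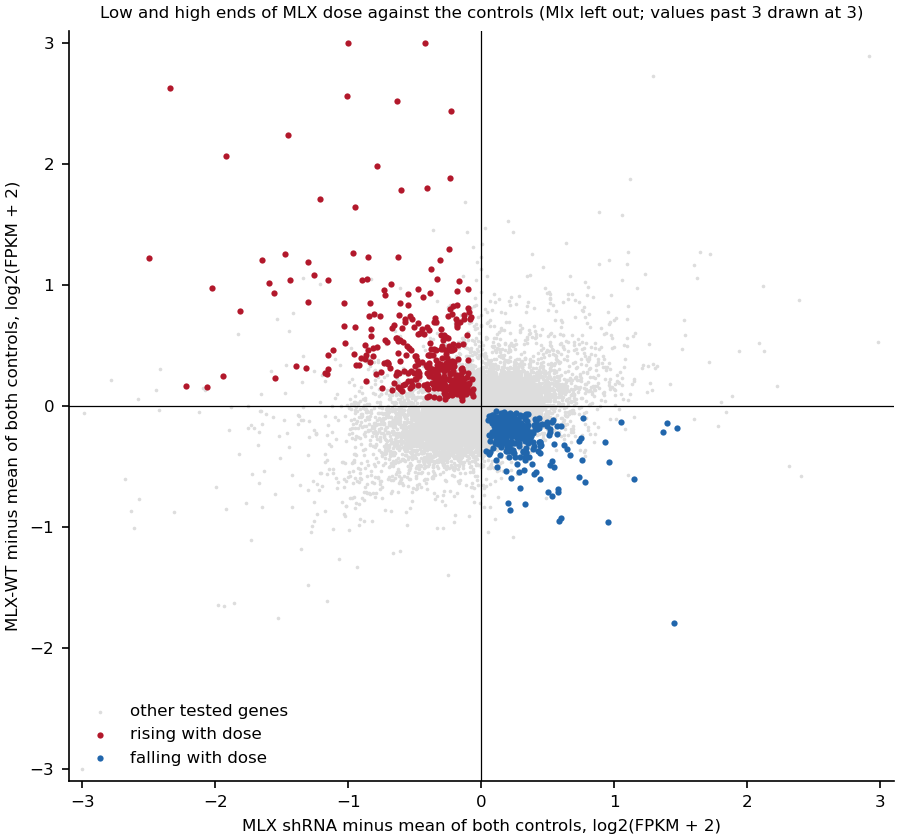
Each point is a tested gene, placed by MLX shRNA minus the mean of both controls (horizontal) and MLX-WT minus that mean (vertical), both in log2(FPKM + 2), with rising genes in red, falling genes in blue and the others in grey. The rising genes spread further, 121 of 366 having at least 1 log2 unit between MLX shRNA and MLX-WT, against 28 of 375 falling genes.

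Most ordered genes were separated by little. The median smaller gap was 0.0817 log2 among the rising genes and 0.0397 among the falling genes. A gap of at least 0.1 was held by 157 rising and 73 falling genes, one of at least 0.25 by 56 and 13, and one of at least 0.5 by 25 and 2. The median difference from the mean of both controls was -0.34 with MLX shRNA and 0.32 with MLX-WT for rising genes, and 0.21 and -0.19 for falling genes. For all tested genes the same medians were -0.024 and -0.053. The low step was the larger of the 2 in 202 of 366 rising and 203 of 375 falling genes. Close to the threshold, 58 rising genes had a gap under 0.02 while 61 genes missed the rising order by less than 0.02, and among falling genes these numbers were 108 and 147. Just inside lay Cyb5 (0.00034, rising) and Mapk8ip3 (0.00026, falling), and just outside Sdha (-0.00012) and G3bp2 (-0.0002). With 3 levels, 6 orders without overlap are possible. MLX-WT lay between MLX shRNA and the controls with MLX shRNA lowest in 651 tested genes (5.45%) and with MLX shRNA highest in 320 (2.68%). MLX-WT was lowest and the controls highest in 279 genes (2.34%), and the controls were lowest and MLX-WT highest in 101 (0.846%).

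Inside the middle level the NT shRNA stood nearer the MLX shRNA end than the GFP control did in most ordered genes. Mlx itself overlapped between the 2 controls (log2 difference -0.0028, NT shRNA minus GFP control). The NT shRNA and MLX shRNA cells carried a hairpin, and the GFP control and MLX-WT cells did not. Construct type therefore runs along with dose, and its part in the order was not tested. The NT shRNA mean lay below the GFP control mean in 253 of 366 rising genes (69.1%) and above it in 257 of 375 falling genes (68.5%), against 50.2% and 49.8% of all tested genes. Their median difference in size was 0.128 log2 in rising and 0.0803 in falling genes, against 0.179 over all tested genes. The rule itself limits this difference, since all control libraries of an ordered gene must lie between its MLX shRNA and MLX-WT libraries. Nothing is therefore read from the smaller size in ordered genes. With 1 control alone as the middle level more genes were ordered, 646 rising and 813 falling with the GFP control and 981 rising and 1177 falling with the NT shRNA.

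Among lists of at least 10 tested genes, the highest shares of rising members were those of interferon-induced genes (33.3%) and glucose-responsive targets (26.7%), followed by the pentose phosphate and NADPH list (23.1%), antioxidant genes (22.2%) and glycolysis (18.2%). Of 24 tested interferon-induced genes 8 were rising (33.3%, against 3.06% of all tested genes) and none was falling, though only 6 were rising with each library centred on its median and 5 after quantile normalization. Of these 8 genes, Ifit3, Oasl2 and Psmb8 passed the filter on low values only through the libraries of 1 group, as did 28 of all 366 rising and 3 of 375 falling genes, so such genes had to differ and the share is a description. Tap2, a peptide transporter of antigen presentation, had 3.43 to 3.83 FPKM with MLX shRNA, 4.87 to 5.64 with the NT shRNA, 6.99 to 7.75 with the GFP control and 12.3 to 13.2 with MLX-WT. Psmb8, a subunit of the immunoproteasome, had 0.0433 to 0.11 FPKM with MLX shRNA, 0.349 to 0.412 with the NT shRNA, 0.76 to 0.772 with the GFP control and 3.39 to 4.39 with MLX-WT. Bst2, the antiviral tetherin, had 6.85 to 7.81 FPKM with MLX shRNA, 8.66 to 9.07 with the NT shRNA, 8.55 to 9.51 with the GFP control and 55.6 to 59.6 with MLX-WT, so that nearly all of its difference lay in the high step. Ifi35 had 10.8 to 11.1 FPKM with MLX shRNA, 12.3 to 13.1 with the NT shRNA, 13.8 to 16.3 with the GFP control and 19.4 to 20.6 with MLX-WT. The other members were Stat2, Isg15, Ifit3 and Oasl2, and Oasl2 did not pass 1.30 FPKM in any library used by the rule.

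Glucose-responsive targets of MLX pairs were rising in 4 of 15 tested cases (26.7%) and falling in none. Me1, the malic enzyme that makes NADPH, had 17.9, 17 and 16.6 FPKM with MLX shRNA, 21, 21.7 and 21.5 FPKM with the NT shRNA, 25.6, 26.1 and 25.8 FPKM with the GFP control and 30.1, 29.9 and 30.8 FPKM with MLX-WT. Pfkfb3, which makes the allosteric activator of phosphofructokinase, had 1.51, 1.64 and 1.43 FPKM with MLX shRNA, 2.07, 2.19 and 2.2 FPKM with the NT shRNA, 2.57, 2.62 and 2.49 FPKM with the GFP control and 4.6, 4.38 and 4.59 FPKM with MLX-WT. Scd1, a fatty acid desaturase, had 59.6 to 62.2 FPKM with MLX shRNA, 81.4 to 82.3 with the NT shRNA, 68.8 to 71 with the GFP control and 105 to 106 with MLX-WT. Hk2, the muscle hexokinase, had 15.5 to 15.8 FPKM with MLX shRNA, 19.9 to 20.4 with the NT shRNA, 17 to 18.3 with the GFP control and 21.8 to 22.8 with MLX-WT. Their order did not extend to Txnip, the arrestin-like protein best known as a MondoA target, which had 4.54 to 4.93 FPKM with MLX shRNA, 38.6 to 40.2 with the NT shRNA, 29.1 to 31 with the GFP control and 37 to 39.4 with MLX-WT, since MLX-WT overlapped the NT shRNA. Neither Fgf21, a metabolic hormone, at 26.1 to 29.1 FPKM with MLX shRNA, 42.9 to 45.7 with the NT shRNA, 5.34 to 6.42 with the GFP control and 46.5 to 47.5 with MLX-WT, nor Klf10, a zinc-finger repressor, at 17.7 to 19.9 FPKM with MLX shRNA, 32.9 to 34.7 with the NT shRNA, 25.6 to 27.5 with the GFP control and 19.9 to 21 with MLX-WT, was ordered. Glycolytic enzymes and lactate export added 3 more rising genes to Hk2, making 4 of 22 (18.2%). Aldoa, the muscle aldolase, had 802 to 852 FPKM with MLX shRNA, 975 to 993 with the NT shRNA, 1178 to 1225 with the GFP control and 1438 to 1465 with MLX-WT. Ldha, lactate dehydrogenase, whose promoter is shown above, had 515, 531 and 546 FPKM with MLX shRNA, 593, 611 and 578 FPKM with the NT shRNA, 578, 589 and 585 FPKM with the GFP control and 734, 712 and 742 FPKM with MLX-WT. Pgam1, a phosphoglycerate mutase, had 146 to 153 FPKM with MLX shRNA, 187 to 189 with the NT shRNA, 157 to 163 with the GFP control and 225 to 226 with MLX-WT.

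Lists of NADPH, lipid and antioxidant genes also held rising members, and the cholesterol list only falling ones. Of the falling members named here, Cyp51 lies on chromosome 5 and Mthfd1 on chromosome 12. Falling genes gathered on both chromosomes, as described below. In the list of the pentose phosphate pathway and NADPH, 3 of 13 were rising and 1 falling. G6pdx, the first enzyme of that pathway, had 14, 14.3 and 14.2 FPKM with MLX shRNA, 22.9, 24.6 and 22.3 FPKM with the NT shRNA, 32.4, 32.7 and 33.1 FPKM with the GFP control and 39.6, 39.2 and 41 FPKM with MLX-WT, and 13.6% of its exon bases overlap Ikbkg on the other strand. Idh1, a cytosolic isocitrate dehydrogenase, had 16 to 17.5 FPKM with MLX shRNA, 27.9 to 29 with the NT shRNA, 39.97 to 40.7 with the GFP control and 42.8 to 43.6 with MLX-WT. Mthfd1, an enzyme of folate metabolism, was falling, with 33.4 to 34.8 FPKM with MLX shRNA, 29.4 to 30.7 with the NT shRNA, 29.5 to 30.002 with the GFP control and 24.6 to 25.3 with MLX-WT. Of 14 fatty acid synthesis genes Scd1 and Gpam were rising, and Gpam, a glycerol-phosphate acyltransferase, had 17.2 to 17.7 FPKM with MLX shRNA, 20.9 to 21.1 with the NT shRNA, 21.6 to 22.9 with the GFP control and 24.5 to 25.6 with MLX-WT. Cpt1a, the gate of mitochondrial fatty acid import, had 4.77 to 5.4 FPKM with MLX shRNA, 8.99 to 9.26 with the NT shRNA, 13.4 to 14.1 with the GFP control and 14.8 to 15.8 with MLX-WT and was 1 of 3 rising genes, beside 2 falling ones, among 21 of fatty acid oxidation and the citric acid cycle. Glutathione and antioxidant genes were rising in 4 of 18 (22.2%), but 2 of 18 after quantile normalization, which also made 1 falling. Among the 4 was Srxn1, sulfiredoxin, with 7.58 to 8.22 FPKM with MLX shRNA, 9.17 to 10.1 with the NT shRNA, 10.2 to 10.3 with the GFP control and 14.7 to 15.1 with MLX-WT. Of 21 cholesterol genes none was rising and 2 were falling, the sterol demethylases Cyp51, with 22.1 to 23.1 FPKM with MLX shRNA, 18.6 to 19.5 with the NT shRNA, 18.9 to 19.9 with the GFP control and 14.2 to 14.8 with MLX-WT, and Sc4mol, with 18.7 to 20.1 FPKM with MLX shRNA, 17 to 17.5 with the NT shRNA, 14 to 14.9 with the GFP control and 11.7 to 12.5 with MLX-WT.

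Lists of muscle, cell cycle, secreted and matrix genes ranged from no ordered gene to shares well above those of all tested genes (3.06% rising and 3.14% falling). No gene was ordered among 21 myogenic transcription factors and fusion genes, 7 myoblast markers or 7 myotube markers. Of 43 sarcomere and excitation-contraction genes 3 were rising (6.98%). Mb, the oxygen store myoglobin, had 233, 244 and 234 FPKM with MLX shRNA, 339, 348 and 332 FPKM with the NT shRNA, 392, 397 and 394 FPKM with the GFP control and 621, 616 and 619 FPKM with MLX-WT. Of its exon bases 27.6% overlap an antisense gene that is not in the table. Pvalb, the calcium buffer parvalbumin of fast fibres, had 5.88 to 6.9 FPKM with MLX shRNA, 8.24 to 8.84 with the NT shRNA, 13.8 to 14.8 with the GFP control and 72.1 to 75.2 with MLX-WT. Smpx, a small stretch-related muscle protein, had 61 to 67 FPKM with MLX shRNA, 67.3 to 70.7 with the NT shRNA, 69.6 to 71.7 with the GFP control and 136 to 141 with MLX-WT, so that its MLX shRNA and NT shRNA libraries nearly touched. Among 34 genes of DNA replication and mitosis Ccnb1 (16.9 to 17.1 FPKM with MLX shRNA, 27.1 to 28.3 with the NT shRNA, 29.6 to 30.4 with the GFP control and 36.3 to 38.6 with MLX-WT) and Aurka were rising (5.88%). Among 42 secreted factors 5 were rising (11.9%) and none falling, among them Ccl2 (0.64 to 1.3 FPKM with MLX shRNA, 1.75 to 2.0 with the NT shRNA, 6.29 to 7.58 with the GFP control and 32.3 to 33.3 with MLX-WT), a sister chemokine of Ccl7, and Enpp2 (0.0531 to 0.108 FPKM with MLX shRNA, 0.342 to 0.531 with the NT shRNA, 1.1 to 1.29 with the GFP control and 26.6 to 27.2 with MLX-WT), the enzyme that makes lysophosphatidic acid. Both took most of their span in the high step. Wnt5a, another of the 5 rising secreted factors, passed the filter on low values only through the libraries of 1 group. It therefore had to differ, and the share is a description. With each library centred on its median 4 of the 42 were rising, and also 4 after quantile normalization. Fgf7, a growth factor for epithelia, had 0.706 to 0.959 FPKM with MLX shRNA, 2.08 to 2.31 with the NT shRNA, 1.55 to 1.89 with the GFP control and 4.2 to 4.43 with MLX-WT. Collagens, matrix glycoproteins and proteoglycans counted 4 rising genes (Thbs2, Col6a1, Col6a2 and Fbln1) and 2 falling ones (Tnc and Postn) of 32, or 12.5% and 6.25%. Fbln1, the matrix protein fibulin 1, had 4.9 to 5.79 FPKM with MLX shRNA, 12.3 to 13.5 with the NT shRNA, 9.67 to 10.2 with the GFP control and 15.8 to 16.4 with MLX-WT. Hypoxia-inducible genes were rising in 3 of 18 cases (16.7%), but in 1 of 18 with each library centred on its median, and Plod2, a collagen lysyl hydroxylase, had 38.9 to 43.5 FPKM with MLX shRNA, 66.8 to 69.4 with the NT shRNA, 58.9 to 63 with the GFP control and 93.5 to 95 with MLX-WT. Rising genes made up 3 of 8 replication histone genes (37.5%), a class whose transcripts mostly lack a poly(A) tail. Of 19 immediate early genes 2 were falling (10.5%), the MAP kinase phosphatase Dusp6 (30.02 to 30.6 FPKM with MLX shRNA, 17.6 to 19.3 with the NT shRNA, 24.7 to 26 with the GFP control and 13.2 to 13.7 with MLX-WT) and Ier3. Notch and BMP genes were falling in 2 of 16 cases (12.5%), the ligand Jag1 (7.85 to 8.34 FPKM with MLX shRNA, 6.55 to 6.97 with the NT shRNA, 6.44 to 6.65 with the GFP control and 5.35 to 5.65 with MLX-WT) and the receptor Notch3.

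Each of 8 other lists held 1 or 2 ordered genes. Sqstm1, an autophagy receptor, was 1 rising gene of 21 for lysosome and autophagy, with 154 to 159.98 FPKM with MLX shRNA, 211 to 218 with the NT shRNA, 219 to 226 with the GFP control and 259 to 269 with MLX-WT. Fbxo32, the muscle ubiquitin ligase atrogin-1, was 1 rising gene of 14 for atrophy, with 9.34 to 9.85 FPKM with MLX shRNA, 11.9 to 12.5 with the NT shRNA, 12 to 12.3 with the GFP control and 15.3 to 15.7 with MLX-WT. Mmp19, a matrix metalloproteinase, was 1 rising gene of 18 for matrix remodelling, with 4.4 to 4.78 FPKM with MLX shRNA, 7.11 to 7.34 with the NT shRNA, 8.76 to 9.41 with the GFP control and 12.6 to 12.8 with MLX-WT. These 3 were higher with dose. Among 17 genes of D-type cyclins, CDK inhibitors and p53 targets, the p53 target Ccng1 was rising and Ccnd2, cyclin D2, falling, with 7.35 to 7.8 FPKM with MLX shRNA, 4.68 to 4.73 with the NT shRNA, 5.68 to 5.86 with the GFP control and 2.81 to 3.02 with MLX-WT. Trib3, a pseudokinase induced by ATF4, was 1 falling gene of 28 in the unfolded protein and ATF4 response, with 2.44 to 2.55 FPKM with MLX shRNA, 2.06 to 2.11 with the NT shRNA, 1.37 to 1.65 with the GFP control and 1.03 to 1.15 with MLX-WT. Cyr61, a matricellular YAP target, was 1 falling gene of 20 for TGF-beta, SRF and YAP targets, with 183 to 190.1 FPKM with MLX shRNA, 173 to 176 with the NT shRNA, 142 to 146 with the GFP control and 119.98 to 124 with MLX-WT. These 3 were lower with dose. Rpl6 was 1 falling gene of 30 ribosomal proteins, and Atp5o 1 rising gene of 28 subunits of oxidative phosphorylation, shares near the background. No marker of adipocytes (1 tested), osteoblasts (2) or macrophages (2) was ordered, and no endothelial marker was tested. Over all 15 libraries endothelial markers summed to at most 0.234 FPKM, adipocyte markers to 1.64 to 3.61 FPKM and osteoblast markers to 5.59 to 10.3 FPKM. The 4 macrophage markers summed to 5.45 to 5.76 FPKM with MLX-DN and 0.948 to 2.23 FPKM in the other 12 libraries, a difference carried by Ptprc alone.

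**Figure D3:**
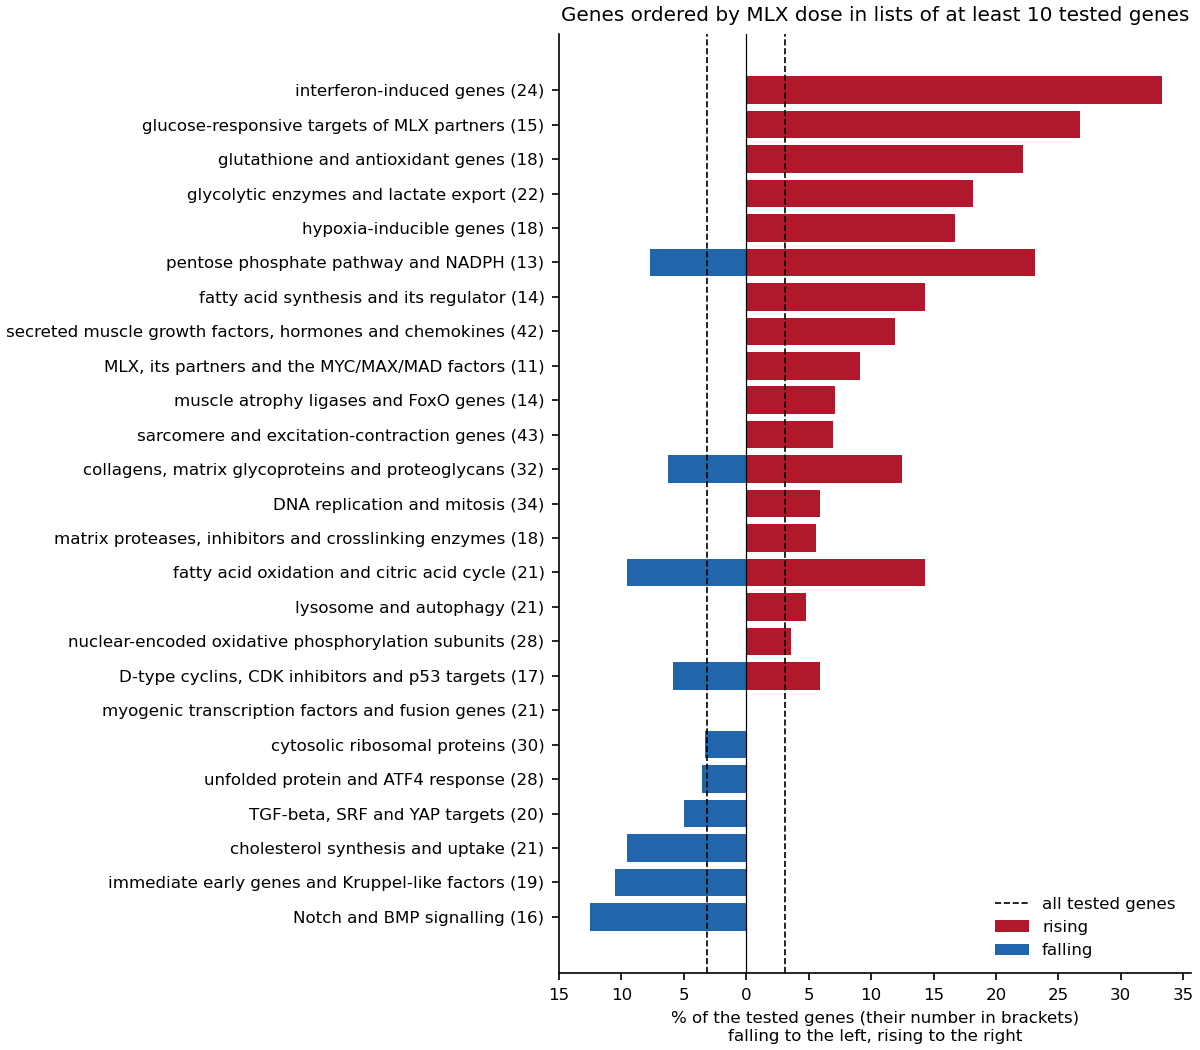
For each list of at least 10 tested genes, the bar to the right is the percent of its tested genes that were rising and the bar to the left the percent falling, with the number tested in brackets and dashed lines at the shares over all tested genes (3.06% and 3.14%). Interferon-induced genes reached 33.3% rising, and Notch and BMP genes 12.5% falling.

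The falling genes gathered on a few chromosomes. Chromosomes were taken from the GRCm38 RefSeq gene table, which placed 99.5% of the tested genes. Of 749 tested genes on chromosome 5, 96 were falling (12.8%, against 3.14% of all tested genes), on chromosome 9 it was 53 of 674 (7.86%) and on chromosome 12 it was 32 of 414 (7.73%). Together these 3 chromosomes held 48.3% of the falling genes and 15.5% of the tested genes. Chromosome 16 held no falling gene among 368 tested. Rising genes were spread more evenly, with the highest share on chromosome 13, at 30 of 437 (6.86%). Over all tested genes of chromosome 5, ordered or not, the medians were 0.10 log2 for MLX shRNA and -0.18 for MLX-WT against the mean of both controls, and 0.12 for the NT shRNA against the GFP control. Cut by gene order into 10 stretches, chromosome 5 held 5 to 17 falling genes in each, with a median for MLX-WT between -0.21 and -0.15. Centring each chromosome on its own median in each library, an alternative chosen after seeing this, left 178 falling genes, 103 of them shared with the 375. Chromosome 5 then kept 4 of its 96, chromosome 9 held 11 and chromosome 12 held 11, of which 7 were shared. Of the rising genes 248 of 366 were shared, in a total of 346. Chromosome 13 then held 13 rising genes, of which 11 were shared with its 30. Mlx and the 24 genes of largest gap still met the rule, in either direction, under this centring and under median centring of the libraries. The chromosome 5 genes of largest gap, named after their values were seen, were Gtf3c2, a subunit of an RNA polymerase III factor, with 21.4 to 21.8 FPKM with MLX shRNA, 17.6 to 18.7 with the NT shRNA, 17.7 to 18.6 with the GFP control and 14.8 to 15.5 with MLX-WT, Ccdc92 with 2.85 to 3.41 FPKM with MLX shRNA, 2.09 to 2.31 with the NT shRNA, 2.01 to 2.29 with the GFP control and 1.31 to 1.6 with MLX-WT, and Scarb2, a lysosomal membrane protein, with 56.3 to 59.6 FPKM with MLX shRNA, 49.5 to 50.8 with the NT shRNA, 40.9 to 42.9 with the GFP control and 34.2 to 35.6 with MLX-WT. Of the falling list members named above, Cyp51 and Rpl6 also lie on chromosome 5, and Mthfd1 on chromosome 12. The part of the chromosome shifts in their order was not tested. What moves with whole chromosomes in these libraries was not tested.

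**Figure D4:**
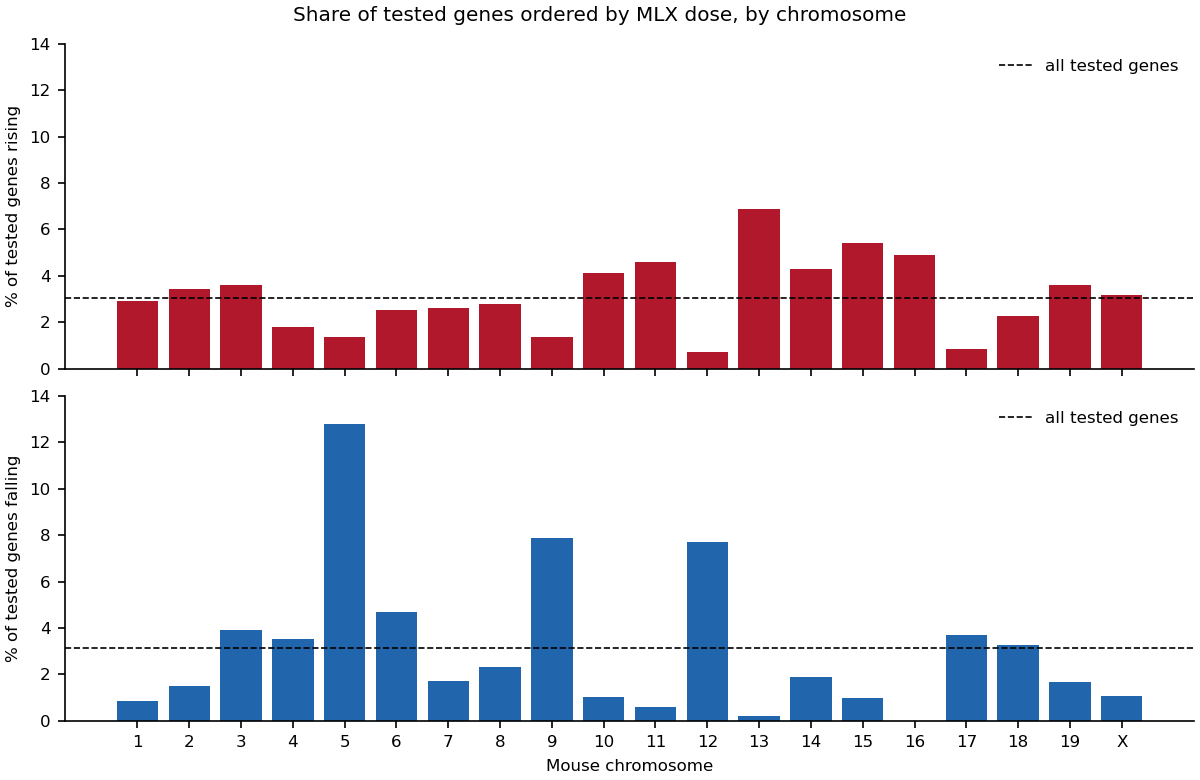
Bars give, for each mouse chromosome, the percent of its tested genes that were rising (upper panel) or falling (lower panel), and the dashed lines mark all tested genes (3.06% and 3.14%). Chromosomes 5, 9 and 12 stand highest for falling genes at 12.8%, 7.86% and 7.73%, and chromosome 13 for rising genes at 6.86%.

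With MLX-DN the ordered genes did not take 1 position. The MLX-DN range overlapped the controls in 39.9% of the rising and 44.8% of the falling genes. All 3 MLX-DN libraries were below all 6 control libraries in 164 of 366 rising genes (44.8%) and above them in 56 (15.3%). Among 375 falling genes they were below, on the high-dose side, in 151 (40.3%) and above, on the low-dose side, in 56 (14.9%). Over all tested genes these shares were 36.1% below and 16.2% above. The MLX-DN libraries as a whole ran lower, with a median of -0.080 log2 against the mean of both controls over all tested genes. With each library centred on its median, the low-dose side held 131 of 384 rising genes (34.1%) and the high-dose side 89 (23.2%), while falling genes split into 73 of 273 on the low-dose side (26.7%) and 72 on the high-dose side (26.4%). All tested genes then stood at 23.1% below and 26.6% above. Of these genes 289 rising and 203 falling ones were shared with the deposited scaling.

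**Figure D5:**
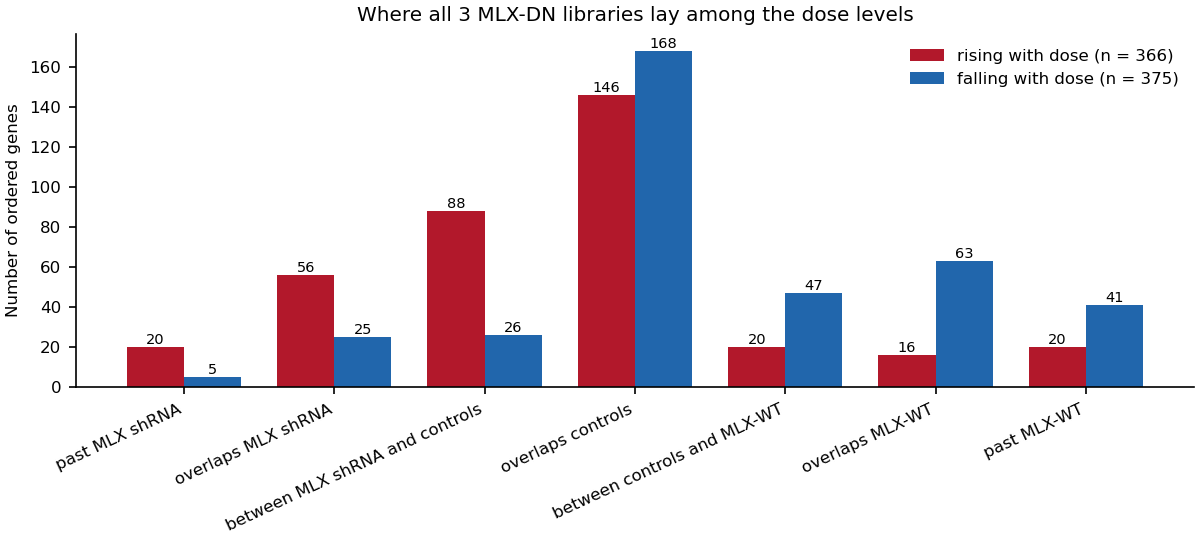
Bars count the rising (red) and falling (blue) genes by where all 3 MLX-DN libraries lay, from past the MLX shRNA libraries at left to past the MLX-WT libraries at right, values as deposited. The MLX-DN range overlapped the controls in 146 rising and 168 falling genes, and of the rest most rising genes lie to the left and most falling genes to the right.

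In limma's test of MLX-DN minus the mean of both controls, whose control libraries the rule had used, 89 rising genes were higher and 212 lower of 366, against 28.0% higher and 50.5% lower over all tested genes. Of 375 falling genes 89 were higher and 191 lower. With median centring these counts were 124 higher and 195 lower for rising genes, 96 higher and 95 lower for falling genes, and 4809 higher and 4429 lower over all 11945. Against the GFP control alone 82 rising genes were higher and 233 lower, and 105 falling genes were higher and 167 lower (background 32.6% higher and 48.8% lower). Against the NT shRNA alone 94 rising genes were higher and 167 lower, and 67 falling genes were higher and 200 lower (background 21.0% and 48.7%). Both comparisons share the MLX-DN libraries. Against MLX-WT 322 rising genes were lower and 247 falling genes higher (background 38.9% lower and 33.2% higher), and against MLX shRNA 269 rising genes were higher and 340 falling genes lower (background 27.1% and 44.1%). As the rule makes those libraries the extremes of every ordered gene, nothing is read from either comparison.

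The rising genes that fell furthest with MLX-DN were genes of lipid handling, inflammation and matrix. The log2 differences are given ± SE, from 3 MLX-DN libraries and 6 control libraries. Lpl, the lipase of circulating triglycerides, had 2.79, 2.89 and 2.99 FPKM with MLX-DN, against 13.9 to 14.1 FPKM with the NT shRNA and 18.4 to 19 FPKM with the GFP control (log2 difference -1.89 ± 0.023, limma adjusted p = 7e-18). Its MLX-DN libraries were also below those with MLX shRNA, at 8.4 to 8.84 FPKM, while MLX-WT gave 68.7 to 71.9 FPKM. Il1rn had 0.202, 0.139 and 0.128 FPKM with MLX-DN, against 1.78 to 2.07 FPKM with the NT shRNA and 5.84 to 6.36 FPKM with the GFP control (log2 difference -1.38 ± 0.029, limma adjusted p = 4.4e-15). Apoe, the lipoprotein ligand apolipoprotein E, had 2.21, 2.23 and 1.94 FPKM with MLX-DN, against 8.78 to 9.83 FPKM with the NT shRNA and 5.67 to 5.72 FPKM with the GFP control (log2 difference -1.17 ± 0.036, limma adjusted p = 3e-13), and in the other cells 1.12 to 1.16 FPKM with MLX shRNA and 14.8 to 16.8 FPKM with MLX-WT. The groups did not overlap in any of these 3 genes. Thbs2 had 27.2, 27.7 and 27.9 FPKM with MLX-DN, against 51.5 to 53.5 FPKM with the NT shRNA and 75.8 to 78.8 FPKM with the GFP control (log2 difference -1.15 ± 0.02, limma adjusted p = 5.1e-16). Ccl7 had 3.38, 3.51 and 4.37 FPKM with MLX-DN, against 6.01 to 7.06 FPKM with the NT shRNA and 14.8 to 16.9 FPKM with the GFP control (log2 difference -1.12 ± 0.055, limma adjusted p = 5.2e-11). Both remained above their MLX shRNA libraries. Fibroblast markers summed to 5.91 to 6.61 FPKM with MLX-DN, of which Dcn had 3.37 to 3.68 FPKM. The macrophage marker Ptprc had 4.39, 4.52 and 4.74 FPKM with MLX-DN, against at most 0.00989 FPKM in the other 12 libraries. The part of these markers in the values above was not tested. The other macrophage markers did not stand higher with MLX-DN, since Cd68 had 0.777 to 0.933 FPKM with MLX-DN and 0.784 to 2.06 FPKM in the other libraries. Csf1r did not pass 0.195 FPKM in any library, and Emr1 was listed at 0 in all 15.

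Other rising leaders also went down with MLX-DN, by less. Emb had 5.99, 5.78 and 5.77 FPKM with MLX-DN, against 7.84 to 8.17 FPKM with the NT shRNA and 8.99 to 9.95 FPKM with the GFP control (log2 difference -0.45 ± 0.032, limma adjusted p = 4.3e-09). Ms4a4d had 0.964, 0.718 and 1.21 FPKM with MLX-DN, against 1.79 to 2.31 FPKM with the NT shRNA and 3.09 to 4.07 FPKM with the GFP control (log2 difference -0.65 ± 0.059, limma adjusted p = 7.1e-08). Lgals3bp had 4.17, 3.59 and 3.68 FPKM with MLX-DN, against 5.66 to 5.9 FPKM with the NT shRNA and 7.57 to 8.25 FPKM with the GFP control (log2 difference -0.60 ± 0.031, limma adjusted p = 1.2e-10). In these 3 genes MLX-DN lay between MLX shRNA and the controls. Cyp11b1 had 0.475, 0.494 and 0.556 FPKM with MLX-DN, against 1.48 to 1.81 FPKM with the NT shRNA and 1.2 to 1.6 FPKM with the GFP control (log2 difference -0.49 ± 0.036, limma adjusted p = 5.8e-09). Tmem86a had 11.5, 11.3 and 11.9 FPKM with MLX-DN, against 10.6 to 10.8 FPKM with the NT shRNA and 20.6 to 21.3 FPKM with the GFP control (log2 difference -0.34 ± 0.026, limma adjusted p = 8.2e-09), but against the NT shRNA alone the difference was 0.093, the other way. Angpt4, at 7.82 to 8.08 FPKM, Tgm2, at 22.6 to 23.2 FPKM, and Mgst1, at 3.16 to 3.84 FPKM with MLX-DN, overlapped the range of the controls and did not pass the test (limma adjusted p = 0.96, 0.71 and 0.052).

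The rising genes that rose furthest with MLX-DN included the muscle genes Pvalb, Igfn1, Smpx, Mb and Cap2. Pvalb had 34.3, 34.4 and 32.9 FPKM with MLX-DN, against 8.24 to 8.84 FPKM with the NT shRNA and 13.8 to 14.8 FPKM with the GFP control (log2 difference 1.45 ± 0.035, limma adjusted p = 1.9e-14). Igfn1, a sarcomere-associated immunoglobulin-domain protein, had 12, 11.8 and 11.7 FPKM with MLX-DN, against 4.97 to 5.32 FPKM with the NT shRNA and 3.6 to 3.76 FPKM with the GFP control (log2 difference 1.12 ± 0.03, limma adjusted p = 6.1e-14). MLX-DN exceeded even MLX-WT in Igfn1, whose MLX-WT libraries were at 8.93 to 10.1 FPKM. Smpx had 139, 144 and 151 FPKM with MLX-DN, against 67.3 to 70.7 FPKM with the NT shRNA and 69.6 to 71.7 FPKM with the GFP control (log2 difference 1.03 ± 0.031, limma adjusted p = 2.2e-13). Mb had 659, 689 and 685 FPKM with MLX-DN, against 332 to 348 FPKM with the NT shRNA and 392 to 397 FPKM with the GFP control (log2 difference 0.89 ± 0.021, limma adjusted p = 1.7e-14), and its MLX-WT libraries reached 616 to 621 FPKM. Cap2, an actin-regulating protein of muscle, had 52.5, 52.1 and 51.5 FPKM with MLX-DN, against 22.4 to 24.4 FPKM with the NT shRNA and 33 to 33.9 FPKM with the GFP control (log2 difference 0.85 ± 0.026, limma adjusted p = 2.8e-13). C1s rose too, with 4.87, 4.97 and 4.91 FPKM with MLX-DN, against 4.15 to 4.69 FPKM with the NT shRNA and 2.93 to 2.96 FPKM with the GFP control (log2 difference 0.30 ± 0.029, limma adjusted p = 1.4e-07). Over the whole sarcomere list 25 of 43 genes were higher and 13 lower with MLX-DN (median 0.20 log2), against 28.0% and 50.5% of all tested genes. Under median centring 29 were higher and 11 lower, against 40.3% and 37.1% of all tested genes. Other lists moved more to 1 side. Of 34 genes of DNA replication and mitosis none was higher and 34 were lower with MLX-DN (median -0.68 log2), and under median centring 33 were lower. Of 32 matrix genes 1 was higher and 29 lower (median -0.37 log2), and 3 and 25 under median centring.

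Some falling genes matched the low-dose end with MLX-DN. Irx3 had 23.5, 24.7 and 21.5 FPKM with MLX-DN, against 14.8 to 16.3 FPKM with the NT shRNA and 11.5 to 12.1 FPKM with the GFP control (log2 difference 0.70 ± 0.042, limma adjusted p = 4.6e-10), and MLX shRNA gave 23.2 to 25.9 FPKM. Fam167a had 14.3, 15.4 and 14.3 FPKM with MLX-DN, against 10.2 to 10.4 FPKM with the NT shRNA and 6.58 to 6.9 FPKM with the GFP control (log2 difference 0.68 ± 0.024, limma adjusted p = 1.4e-12). Ereg, the growth factor epiregulin, had 7.2, 7.76 and 7.4 FPKM with MLX-DN, against 5.03 to 5.27 FPKM with the NT shRNA and 2.49 to 2.63 FPKM with the GFP control (log2 difference 0.73 ± 0.047, limma adjusted p = 1.4e-09). In these 3 genes the MLX-DN and MLX shRNA libraries overlapped. Clip4 had 10.3, 9.88 and 10.1 FPKM with MLX-DN, against 6.24 to 7.04 FPKM with the NT shRNA and 3.98 to 4.13 FPKM with the GFP control (log2 difference 0.75 ± 0.028, limma adjusted p = 2.9e-12). Sc4mol had 29.2, 28.7 and 31.3 FPKM with MLX-DN, against 17 to 17.5 FPKM with the NT shRNA and 14 to 14.9 FPKM with the GFP control (log2 difference 0.84 ± 0.03, limma adjusted p = 1.7e-12), past its MLX shRNA libraries. Cyp51 had 29.6, 28.4 and 28.7 FPKM with MLX-DN, against 18.6 to 19.5 FPKM with the NT shRNA and 18.9 to 19.9 FPKM with the GFP control. Over the 21 cholesterol genes 15 were higher and 4 lower with MLX-DN, with a median of 0.43 log2, against 28.0% and 50.5% of all tested genes. Under median centring 17 were higher and 1 lower, against 40.3% and 37.1%. Smaller rises were those of Sema7a, with 49.6, 49.8 and 46.3 FPKM with MLX-DN, against 43.4 to 44.7 FPKM with the NT shRNA and 33.1 to 34.4 FPKM with the GFP control (log2 difference 0.32 ± 0.033, limma adjusted p = 3.1e-07), and Slc20a1, with 29.4, 29.2 and 29.4 FPKM with MLX-DN, against 25.9 to 26.6 FPKM with the NT shRNA and 19.4 to 20.1 FPKM with the GFP control (log2 difference 0.34 ± 0.021, limma adjusted p = 8.3e-10). Hbegf had 29.6, 29.9 and 29.2 FPKM with MLX-DN, against 29.5 to 30.1 FPKM with the NT shRNA and 22.3 to 22.8 FPKM with the GFP control (log2 difference 0.18 ± 0.021, limma adjusted p = 1.7e-06), and against the NT shRNA alone its difference was -0.009.

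Other falling genes went with the high-dose end or past it. Inhbb, a subunit of activin B, had 4.11, 4.53 and 4.21 FPKM with MLX-DN, against 10.3 to 10.8 FPKM with the NT shRNA and 8.66 to 9.09 FPKM with the GFP control (log2 difference -0.90 ± 0.027, limma adjusted p = 2.2e-13), below the 6.24 to 6.54 FPKM of MLX-WT. Efnb2 had 2.85, 2.99 and 2.87 FPKM with MLX-DN, against 5.64 to 5.81 FPKM with the NT shRNA and 5.56 to 5.77 FPKM with the GFP control (log2 difference -0.65 ± 0.028, limma adjusted p = 1.1e-11), and Sulf2, an enzyme that trims heparan sulfate, had 5.38, 5.34 and 5.52 FPKM with MLX-DN, against 9.81 to 9.98 FPKM with the NT shRNA and 9.77 to 9.92 FPKM with the GFP control (log2 difference -0.68 ± 0.026, limma adjusted p = 3.3e-12). Both also lay below their MLX-WT libraries. Epha1 had 3.28, 3.47 and 3.53 FPKM with MLX-DN, against 8.12 to 8.53 FPKM with the NT shRNA and 5.48 to 5.93 FPKM with the GFP control (log2 difference -0.71 ± 0.034, limma adjusted p = 4e-11). Ccbe1, a secreted protein of lymphatic vessel growth, had 1.69, 1.63 and 1.76 FPKM with MLX-DN, against 3.95 to 4.17 FPKM with the NT shRNA and 3.71 to 3.8 FPKM with the GFP control (log2 difference -0.68 ± 0.03, limma adjusted p = 1.7e-11). Gpr126 had 3.95, 3.98 and 4.27 FPKM with MLX-DN, against 8.0 to 8.24 FPKM with the NT shRNA and 6.42 to 7.06 FPKM with the GFP control (log2 difference -0.63 ± 0.027, limma adjusted p = 1.1e-11). These 3 lay between the controls and MLX-WT. Tnc had 312, 309 and 307 FPKM with MLX-DN, against 429.8 to 459.9 FPKM with the NT shRNA and 316 to 329 FPKM with the GFP control (log2 difference -0.29 ± 0.022, limma adjusted p = 1.2e-08), but the difference from the GFP control alone was -0.052 (limma adjusted p = 0.075). Postn had 82.6, 84.1 and 85.8 FPKM with MLX-DN, between the 2 controls (log2 difference -0.092 ± 0.021, limma adjusted p = 0.00093), with no difference left under median centring and the opposite sign against the GFP control alone, 0.75. Lbh, at 27.8 to 28 FPKM with MLX-DN, and Col5a3, at 88.7 to 95.6 FPKM, lay within or across the range of the controls, with limma adjusted p = 0.26 for Lbh and 0.15 for Col5a3.

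The glucose-responsive genes did not share 1 position with MLX-DN. Me1 had 19.8, 19 and 20.03 FPKM with MLX-DN, against 21 to 21.7 FPKM with the NT shRNA and 25.6 to 26.1 FPKM with the GFP control, and Pfkfb3 had 1.94, 1.82 and 1.96 FPKM with MLX-DN, against 2.07 to 2.2 FPKM with the NT shRNA and 2.49 to 2.62 FPKM with the GFP control, so both lay between MLX shRNA and the controls. Scd1 had 102, 100.1 and 101 FPKM with MLX-DN, against 81.4 to 82.3 FPKM with the NT shRNA and 68.8 to 71 FPKM with the GFP control, above every control library. Hk2, at 18 to 18.3 FPKM with MLX-DN, overlapped the controls. Txnip, which was not ordered, had 1.251, 1.17 and 1.51 FPKM with MLX-DN, below all other libraries. Of 15 tested glucose-responsive targets 7 were higher and 7 lower with MLX-DN by limma's adjusted p, against 28.0% and 50.5% of all tested genes. Under median centring 7 were higher and 5 lower, against 40.3% and 37.1% of all tested genes. Among interferon-induced genes, Bst2 had 9.39, 9.55 and 8.69 FPKM with MLX-DN, against 8.66 to 9.07 FPKM with the NT shRNA and 8.55 to 9.51 FPKM with the GFP control, far from its MLX-WT level. Of the 24 tested genes of that list 4 were higher and 15 lower with MLX-DN, and 6 and 10 under median centring, against 28.0% and 50.5% of all tested genes in the deposited scaling.

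Among the other ordered genes, those most like Mlx over the 12 libraries of the 3 levels were found by Pearson's r of log2 values. They were Pi15 (r = 0.998), Plcb1 (0.994), Clca5 (0.994), B3gnt8 (0.993) and Kif5c (0.992). Genes that were not ordered were not compared. Pi15, a secreted peptidase inhibitor, had 0.661 to 0.811 FPKM with MLX shRNA, 2.07 to 2.36 with the NT shRNA, 2.0 to 2.2 with the GFP control and 12.1 to 12.6 with MLX-WT. Kif5c, a kinesin motor, had 4.3 to 4.77 FPKM with MLX shRNA, 5.26 to 5.38 with the NT shRNA, 5.42 to 5.64 with the GFP control and 9.9 to 9.96 with MLX-WT. The MLX-WT libraries lie far above the others in Mlx, so r rests mainly on the high step. These 12 libraries share 4 constructs, and r is a description. With MLX-DN these genes parted. Pi15 had 1.53, 1.41 and 1.52 FPKM with MLX-DN, against 2.07 to 2.36 FPKM with the NT shRNA and 2.0 to 2.2 FPKM with the GFP control, while Kif5c had 8.89, 9.32 and 9.12 FPKM with MLX-DN, against 5.26 to 5.38 FPKM with the NT shRNA and 5.42 to 5.64 FPKM with the GFP control.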

How the data were processed

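The values are log2 FPKM as the authors deposited them, in 1 table of 23352 genes and 15 libraries, 3 for each of 5 groups, with groups and replicate numbers taken from the sample titles. The submitters' processing notes name CASAVA, TopHat2, STAR and the build mm9, with no role or version, and for the counting tool, annotation and use of strand nothing is given in the sources used here. Each library had 1 as its lowest value, so values were read as log2(FPKM + 2). Read as 1 + log2(FPKM + 1), every FPKM would be halved and the log2 differences would stay. Low values stepped by whole reads (66.4% to 71.3% within 0.05 of a whole number at the best depth, 4.65% to 5.86% at the median of other depths, over 15972 genes), giving depths of 36.9 to 82.8 M reads. At 2000 bases 3 reads are worth 0.0181 to 0.0406 FPKM, which covers counting error only.

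Genes with FPKM of at least 1 in at least 3 libraries (11945) entered the order rule and the fit, limma 3.58.1 in R 4.3.3, fitted to all 15 libraries with a mean for each group, a variance trend, two-sided tests, Benjamini-Hochberg adjustment over all tested genes of a comparison and a threshold of 0.05. Errors of differences are the fit's SE. The fit and the order rule were run on simulated data as a check of the code only. The levels of the simulated ordered genes were set far apart, so small gaps were not checked.

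The members, gene lists and tests were chosen with earlier results of these data known. Named genes are Mlx and the 12 rising and 12 falling genes of largest smaller gap. The 5 of each order with the largest MLX-DN change in each direction are named too. So are up to 4 ordered members of each list, all ordered members of the glucose-target and MLX lists and a few non-ordered members. The 5 ordered genes most like Mlx complete them. Predicted genes and rows with several symbols were left out of the top lists. Of the 88 named genes, 4 have an expressed antisense neighbour over 10% or more of their exons (G6pdx, Mlx, Mmp19 and Sqstm1), and their values are uncertain to that extent. Promoters are RefSeq sequences of GRCm38.p6 and chromosomes come from the RefSeq gene table of GRCm38, while the files use mm9, so no other coordinates are printed. Alternatives were other filters, offsets, scalings, a single control, wider gaps, a replicate block, no variance trend, a 1.5-fold limit, leaving out each library, and chromosome centring.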

Additional observations from a re-analysis of the deposited data

How the results depend on the processing

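Counts of ordered genes depend on how the middle level and the gap are set. With the GFP control alone as the middle level 646 genes were rising and 813 falling. MLX-DN then lay on the low-dose side in 374 rising and 275 falling genes and on the high-dose side in 174 and 349. Against this control 167 rising genes were called higher and 370 lower, and 250 falling genes higher and 320 lower. Calls towards the low- and high-dose ends were 620 and 487 against the GFP control, 432 and 615 against the NT shRNA, 1023 and 153 against MLX-WT, and 109 and 1076 against MLX shRNA. With both controls as the middle level these pairs were 338 and 249, 234 and 294, 569 and 53, and 24 and 609. As the rule makes the MLX-WT and MLX shRNA libraries the extremes, nothing is read from their pairs in any setting of this section. With the NT shRNA alone 981 genes were rising and 1177 falling, with MLX-DN on the low-dose side in 565 and 300 and on the high-dose side in 206 and 554. Calls were 199 higher and 533 lower among rising genes and 285 and 520 among falling genes. The pairs towards the low and high ends were 1428 and 466, 818 and 719, 1632 and 174, and 148 and 1604 in the same sequence of comparisons. A middle level of 3 libraries asks less of a gene than one of 6.

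A gap of at least 0.1 log2 left 157 rising and 73 falling genes, with MLX-DN on the low-dose side in 83 and 13 and on the high-dose side in 22 and 35. A gap of at least 0.25 left 56 and 13, with 27 and 5 on the low-dose side and 8 and 4 on the high-dose side. With a change of at least 1.5-fold, 253 tested genes were called higher and 463 lower with MLX-DN, among them 11 and 20 rising genes and 5 and 6 falling genes. Calls towards the low and high ends were 51 and 19 against the GFP control, 11 and 20 against the NT shRNA, 161 and 0 against MLX-WT, and 2 and 118 against MLX shRNA. Median centring gave 89 rising and 72 falling genes with MLX-DN on the high-dose side and 95 falling genes called lower. Chromosome centring, chosen after seeing the data, gave 178 falling genes, with MLX-DN on the low-dose side in 30 and on the high-dose side in 59, 43 called higher and 76 lower, and 15 ordered genes called towards the low-dose end against MLX shRNA. In these settings the cause of a moved count was not tested. Other filters and offsets, quantile normalization and a fit without the variance trend moved none of these counts by over 1.5 times. Of 38 named MLX-DN differences, 9 did not pass with the 1.5-fold limit, and Tnc did not pass against the GFP control alone.

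Leaving out each library in turn gave 366 to 389 rising and 375 to 429 falling genes. MLX-DN lay on the low-dose side in 168 to 179 rising and 57 to 77 falling genes, and on the high-dose side in 56 to 63 and 152 to 183. Over all tested genes 3160 to 3397 were called higher and 5738 to 6084 lower, with 82 to 96 rising genes higher, 205 to 227 lower, and 76 to 116 falling genes higher, 173 to 237 lower. Calls towards the low and high ends were 320 to 377 and 231 to 288 against the GFP control, 222 to 262 and 273 to 346 against the NT shRNA, 555 to 622 and 48 to 66 against MLX-WT, and 21 to 31 and 598 to 659 against MLX shRNA.

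Of single genes, the MLX-DN difference turned its sign for Angpt4 (0.09014 with median centring, 0.11 with quantile normalization), Tgm2 (0.08352, 0.06884 and, against the NT shRNA, 0.19), Postn (3.8e-05 with median centring, 0.75 against the GFP control), Lbh (0.06221 with median centring, 0.15 with chromosome centring), Tmem86a (0.09337 against the NT shRNA), Col5a3 (-0.15) and Hbegf (-0.009003), the last 2 also against the NT shRNA. Same-numbered libraries of different groups deviated little together (r between -0.0933 and 0.182 over 30 pairs, 4 of them over 0.1). With 3 libraries a group this cannot show whether they shared a culture or a day, and the main fit did not pair them. With the replicate number as a replicate block, 214 rising and 192 falling genes were called lower, 89 and 88 higher, and Mgst1 passed the threshold (limma adjusted p = 0.017).

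Fragment counts were not given, so errors rest on 3 libraries a group, and genes near the 3-read floor carry most of the counting error. FPKM is relative within a library, so a change in total RNA cannot be seen, and the MLX-DN libraries ran lower as a whole.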
